A study of Bos taurus with 6 samples.

Results

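Interferon-induced antiviral genes were examined for DNA methylation in bovine dermal fibroblasts. The 9 genes were OAS2, MX1, MX2, ISG15, IFIH1, DDX58, STAT2, IRF1 and IRF7, out of 26227 genes labelled in the window files. They were read as every 3 kb window that carried one of these gene labels, plus the window just upstream of each start, which gave 85 of 902984 windows. The group was chosen because the start of OAS2 had the lowest p by age among a set of promoters from the study, so the age values of OAS2 are given as a description without a test.

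MIRA-Seq, the sequencing form of the methylated CpG island recovery assay, pulls sheared DNA down with methyl-CpG-binding proteins and sequences what was captured, so that a window with more methylated CpGs gives more reads. Dermal fibroblasts of 3 Holstein heifers were cultured at 5 and again at 16 months of age, with 1 library per animal and age, all at passage 5, untreated and never exposed to LPS. The animals had been chosen by the study as mid-level responders to LPS, each culture gave 1 library, and a change in the share of methylated cells cannot be told apart from a change in methylation per cell. The cell type could not be checked against marker genes, since DNA methylation was measured here and not RNA.

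Interferons are secreted by cells that sense a virus, and they bind receptors whose kinases activate signal transducers such as STAT2. Together with IRF9, STAT2 enters the nucleus and switches on a large set of genes that block viral replication or raise the sensitivity of the sensors. Methylation at the start of a gene is commonly found with low transcription, while methylation inside the transcribed gene body is common in active genes.

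Between 19925171 and 43573272 reads were counted per library, so that a single read was worth 0.0239 to 0.0508 CPM, a read count scaled to library depth. A median of 7 reads fell in a member window in 1 library, and 16 of the 85 member windows (18.8%) reached 1 CPM in at least 3 of the 6 libraries, against 11.6% of all windows. All levels below are TMM-scaled CPM per 3 kb window, given as mean ± SD over the 6 libraries unless stated. The start of a gene was its first labelled window on its strand together with the window upstream, and the body was every later labelled window. The cultures were compared by age with animal as a block in edgeR's quasi-likelihood test, and a feature was called when its FDR was under 0.1 and it changed 2-fold or more. The log2 differences by age are positive where the cultures from 5-month old animals were higher.

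Most of the antiviral genes had a start signal near that of other genes, whereas IRF7, MX2 and OAS2 were high. The start levels of the 9 genes had a median of 0.358 CPM per window, and the median over all genes was 0.321. The 7 genes with a body window had a median body level of 0.627 CPM per window, against 0.489 over all genes. ISG15 and IRF7 each had only 1 labelled window and therefore no body, so their start cannot be told apart from signal inside the gene. The windows upstream of IRF7, OAS2 and MX2 carry the labels of CDHR5, OAS1 and FAM3B. The start levels of these high genes thus include signal from windows assigned to a neighbouring gene.

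**Figure D1:**
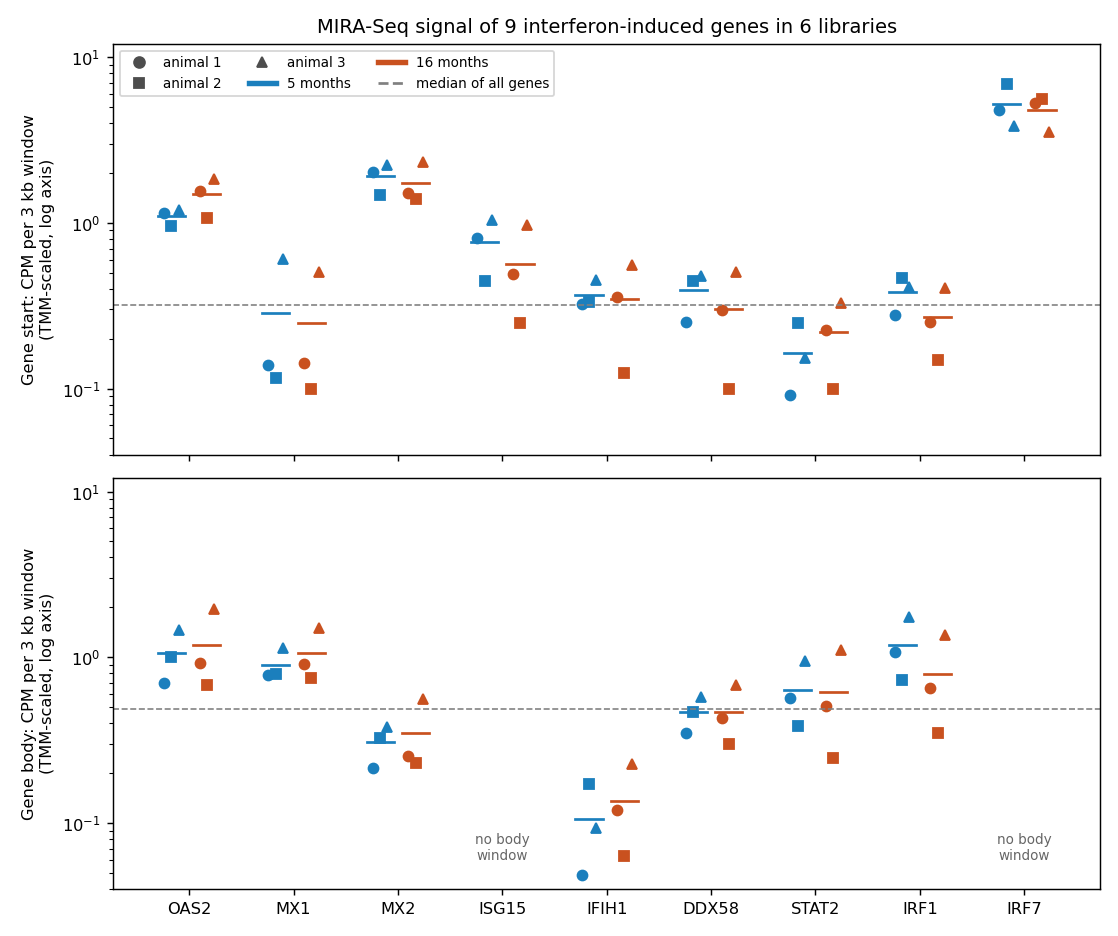
TMM-scaled CPM per 3 kb window (log axes) at the start (top) and in the body (bottom) of each of the 9 genes, with 1 symbol per library, horizontal lines at the mean of each age and a dashed line at the median of all genes. IRF7, at 5.00 CPM per window, sits above every other start, and animal 3 (triangles) is the highest animal in each body.

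Among the effectors, OAS2 makes short oligoadenylates in the presence of double-stranded RNA. At 5 months its start held 1.15, 0.961 and 1.19 CPM per window in the cultures of animals 1, 2 and 3, and 1.56, 1.07 and 1.83 at 16 months. The mean of 1.29 ± 0.333 was higher than 80.8% of gene starts. The OAS2 body was at 1.12 ± 0.498 CPM per window, the highest of the 7 bodies, though its libraries overlapped with those of IRF1, MX1 and STAT2.

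MX1 and MX2 are dynamin-like GTPases that trap viral components, and they lie close together on chromosome 1. The MX2 start held 2.02, 1.47 and 2.23 CPM per window in cultures from 5-month old animals and 1.52, 1.39 and 2.34 in cultures from 16-month old animals. The MX1 start was low, with 0.138, 0.116 and 0.606 CPM per window at 5 months and 0.143, 0.0991 and 0.508 at 16 months. Every library therefore had more signal at the MX2 start than at the MX1 start. In the body the order was the opposite in every library, with 0.978 ± 0.294 CPM per window for MX1 and 0.327 ± 0.129 for MX2.

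ISG15, a ubiquitin-like protein that is conjugated to other proteins during infection, had a start level of 0.666 ± 0.317 CPM per window. Its 6 libraries held 0.805, 0.447 and 1.04 CPM per window at 5 months and 0.489, 0.248 and 0.965 at 16 months, so that animal 2 was lowest at both ages. Most of this signal lay in the labelled window (chr16:52713781-52716780, UMD v3.1), at 1.21 ± 0.619 CPM and 179 reads, whereas the window upstream held 0.125 ± 0.0709 CPM and 20 reads.

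The cytosolic RNA sensors IFIH1 (MDA5) and DDX58 (RIG-I) had start levels close to the median of all genes. IFIH1 was at 0.358 ± 0.146 CPM per window and DDX58 at 0.347 ± 0.158. They differed in the body, where IFIH1 held 0.121 ± 0.0678 CPM per window, higher than only 13.3% of gene bodies, and DDX58 held 0.467 ± 0.142. No library of IFIH1 reached the lowest DDX58 library in the body, since the highest IFIH1 value was 0.226 and the lowest DDX58 value was 0.3.

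STAT2, which carries the interferon signal into the nucleus, had the lowest start of the 9 genes at 0.191 ± 0.0935 CPM per window and a body of 0.627 ± 0.332. IRF1, a transcription factor induced by interferon gamma, was at 0.326 ± 0.12 CPM per window at the start and 0.99 ± 0.516 in the body. IRF7, the transcription factor that amplifies interferon alpha production, had the highest start.

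The IRF7 start held 4.8, 6.91 and 3.83 CPM per window in cultures from 5-month old animals and 5.32, 5.57 and 3.53 in those from 16-month old animals. Even the lowest of these values was above the highest of any other member, 2.34 at MX2, and the mean of 5.00 ± 1.24 was higher than 95.6% of gene starts. The signal was spread over the IRF7 window (chr29:50904219-50907218) at 4.50 ± 1.20 CPM and the window upstream at 5.49 ± 1.59, which carries the label of the neighbouring gene CDHR5. Below IRF7, neighbours in the order MX2, OAS2, ISG15, IFIH1, DDX58, IRF1, MX1 and STAT2 overlapped in their libraries.

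The signal was then compared between the start and the body of each gene, a measure that played no part in the choice of genes. Both ages of an animal were summed, and 7 members could be tested. MX2 and IFIH1 had more signal at the start, MX1, STAT2 and IRF1 had more in the body, and OAS2 and DDX58 did not pass an FDR of 0.05. Over all 20221 genes tested, 67.8% differed between start and body, with 19.3% higher at the start and 48.5% higher in the body, so a difference as such was common.

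MX2 had 5.57-fold more signal at its start than in its body (log2 2.48, SE 0.26, adjusted p = 2.61e-05 in edgeR's quasi-likelihood test, higher in 6 of 6 libraries). The same comparison for MX1 gave a 4.34-fold lower start (log2 -2.12, SE 0.36, adjusted p = 0.000575 in edgeR's quasi-likelihood test, higher at the start in 0 of 6 libraries). These GTPase genes thus carried their signal at different ends. The MX2 signal peaked in its first labelled window (chr1:143124701-143127700) with 3.04 ± 0.609 CPM and 50.9% of the reads of its labelled windows. For MX1 the peak was the last of 12 labelled windows (chr1:143202701-143205700), with 4.16 ± 0.689 CPM and 39.1% of the reads, while its first window held 0.072 CPM and 10 reads in all.

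The window upstream of MX2 is labelled FAM3B and held 0.619 CPM. With the first labelled window alone as the start, the log2 difference between start and body was 3.22 for MX2 and -3.91 for MX1, both still past the threshold in edgeR's quasi-likelihood test. The first pair of MX1 windows carries no coding segment in the deposited annotation.

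The sensors also differed from each other in this respect. IFIH1 had 2.87-fold more signal at the start (log2 1.52, SE 0.28, adjusted p = 0.000941 in edgeR's quasi-likelihood test, higher in 6 of 6 libraries), on few reads, with 112 in the start and 345 in the body over all libraries. Its highest labelled window was the first of 19 (chr2:34215734-34218733), at 0.423 ± 0.127 CPM. DDX58 gave a log2 difference of -0.41 (SE 0.25, adjusted p = 0.172 in edgeR's quasi-likelihood test, higher at the start in 0 of 6 libraries). For DDX58 the result turned on the window upstream, which held 0.568 CPM while the first labelled window held 0.126 CPM and 22 reads. With the first labelled window alone the difference was -1.74 (SE 0.45) and passed the threshold (adjusted p = 0.00393 in edgeR's quasi-likelihood test). The DDX58 peak was window 9 of 17 (chr8:11449487-11452486), with 2.14 ± 0.797 CPM and 27.2% of the reads.

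Both STAT2 and IRF1 were lower at the start in 6 of 6 libraries. The start of STAT2 was 2.88-fold below its body (log2 -1.52, SE 0.31, adjusted p = 0.00186), and that of IRF1 was 2.76-fold below (log2 -1.47, SE 0.30, adjusted p = 0.00164 in edgeR's quasi-likelihood test for both). In STAT2, window 3 of 4 (chr5:57327606-57330605) held 1.19 ± 0.703 CPM and 54.7% of the reads. In IRF1, window 2 of 3 (chr7:23238446-23241445) held 1.29 ± 0.817 CPM and 52.0% of the reads. These 2 genes thus had their peak inside the gene and a start near or below the median of all genes.

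OAS2 showed no such contrast, with a log2 difference of 0.25 between start and body (SE 0.27, adjusted p = 0.421 in edgeR's quasi-likelihood test) and a higher start in 3 of 6 libraries. Its labelled windows ranged from 0.505 CPM in the second to 1.96 ± 1.12 in the eighth, which held 18.1% of the reads. Only IFIH1, whose first window held 15.9% of the reads, had a lower share in its highest window among the 7 genes with several windows.

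**Figure D2:**
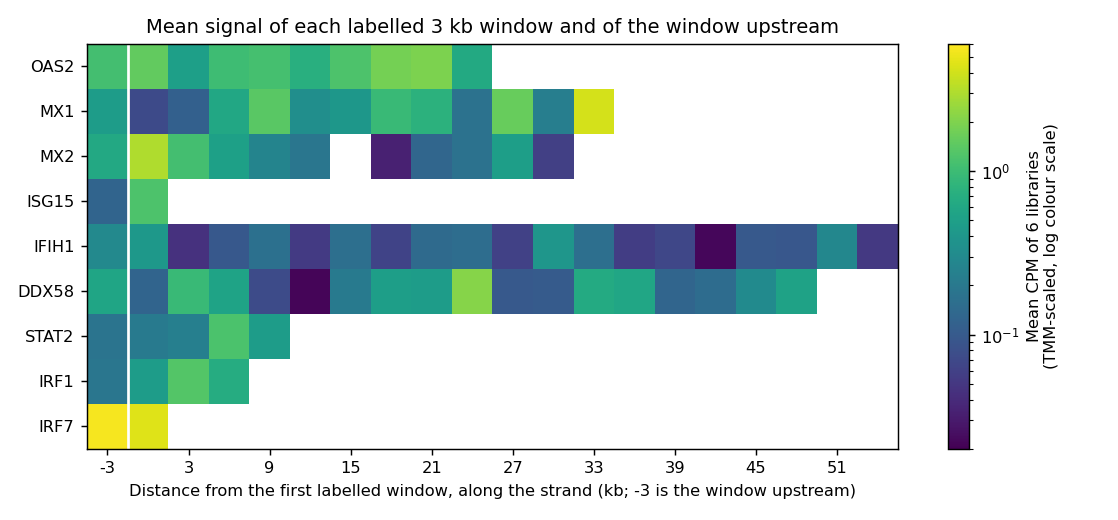
Mean TMM-scaled CPM of the 6 libraries (log colour scale) in each labelled 3 kb window of the 9 genes and in the window upstream, by distance along the strand in kb; blank cells carry no label of that gene, and 1 window inside MX2 carries the FAM3B label. MX2 is brightest in its first window at 3.04 CPM, MX1 in its last at 4.16 CPM, and IRF7 is bright in both of its windows.

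The age difference at OAS2, the reason for choosing this group, was seen in its first labelled window (chr17:63633994-63636993, minus strand, without a coding segment). This window held 19, 44 and 19 reads at 5 months, in the order of the animals, and 83, 37 and 41 reads at 16 months. Scaled to depth these were 0.874, 1.46 and 0.823 CPM at 5 months and 1.98, 1.83 and 2.08 CPM at 16 months. The ages did not overlap, with means of 1.05 ± 0.353 and 1.97 ± 0.125 CPM (SD, n = 3 each).

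The fitted log2 difference was -0.93 (SE 0.38), which is short of the 2-fold change that a call required. Over all 104658 windows tested, 0.185% were called by age, 0.105% as higher at 5 months and 0.0803% as higher at 16 months, and nothing is read from that share for OAS2 because its start was picked for this contrast. Within animals the log2 difference was -0.85, -0.25 and -0.97 for animals 1, 2 and 3, on log2(CPM + 0.5). Animal 2 thus had the same direction as the others but a smaller difference, and without it the fitted value was -1.25. The highest depth at a single position was 6, 17 and 8 reads at 5 months and 36, 15 and 13 at 16 months. Over the libraries this was 0.391 of the reads, the highest such share among the 9 OAS2 windows. Whether stacked reads had a part in the difference was not tested.

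Neither neighbouring window was higher at 16 months in all 3 animals. The window upstream of OAS2 (chr17:63636994-63639993) is labelled OAS1, a sister gene of the same family, and held 1.43, 0.464 and 1.56 CPM at 5 months and 1.15, 0.297 and 1.57 CPM at 16 months, which overlapped. Its log2 difference was 0.26 (SE 0.49). Adding it to the first window brought the OAS2 start to a log2 difference of -0.41 (SE 0.27), against -0.92 (SE 0.34) for the first window alone in the same comparison of starts. Downstream, the second OAS2 window held 0.046, 0.497 and 0.39 CPM at 5 months and 0.477, 0.149 and 1.47 CPM at 16 months, which overlapped. Within animals 1, 2 and 3 its log2 difference was -0.84, 0.62 and -1.15, on log2(CPM + 0.5). Animals 1 and 3 thus had the direction of the first window, and animal 2 the opposite. This second window held 77 reads in all and stayed under the filter, so it was not tested.

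A further OAS2 window with no overlap between the ages lay 18 kb into the gene (chr17:63615994-63618993). It held 1.56, 1.56 and 1.39 CPM at 5 months and 1.84, 2.23 and 2.34 CPM at 16 months, a log2 difference of -0.49 (SE 0.32). The share of all windows without overlap between the ages was not counted, so nothing is read from this one. In the other windows the direction differed between animals. In animal 3 the culture from 16 months of age was higher in 9 of the 9 labelled windows, and in animal 1 in 6 of 9. In animal 2 the culture from 5 months of age was higher in 7 of 9. The windows of an animal come from the same libraries, in a gene picked for its age difference. The share of all windows in each direction was not counted per animal, so nothing is read from these counts. The OAS2 body as a whole gave a log2 difference of -0.09 (SE 0.30).

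**Figure D3:**
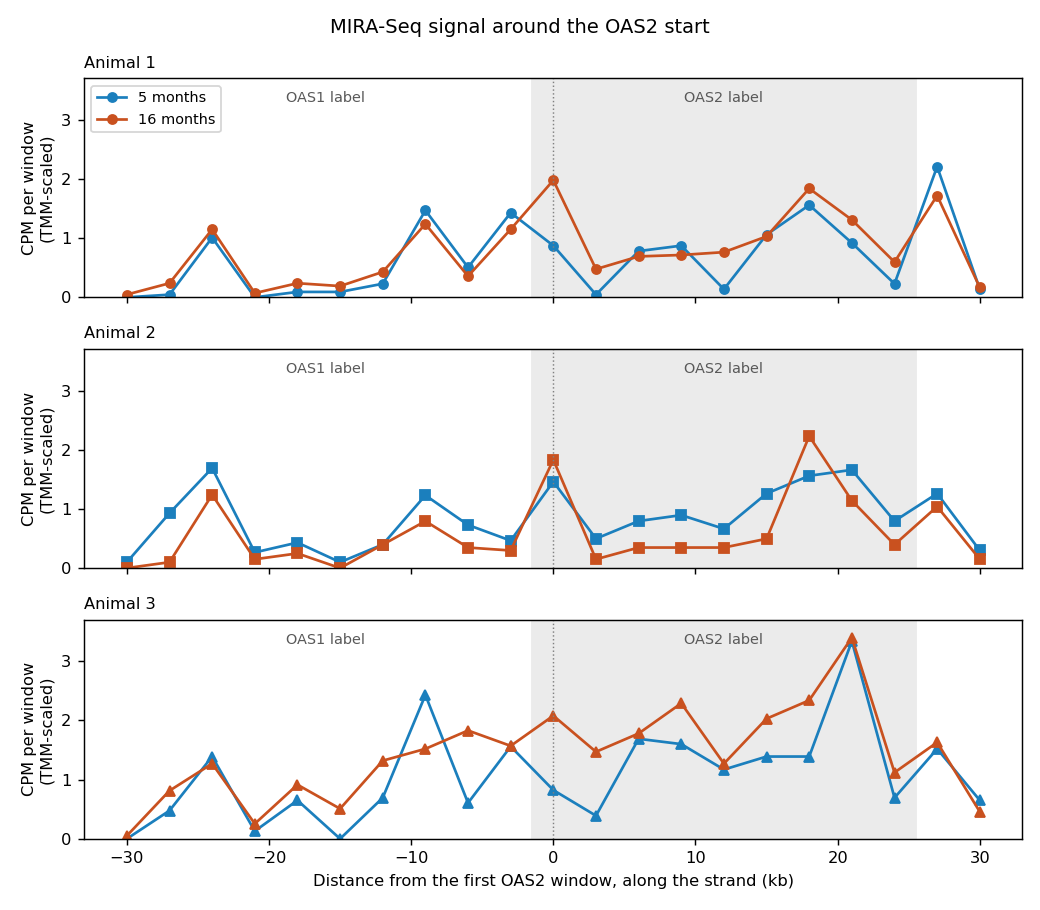
TMM-scaled CPM of each 3 kb window from 30 kb before to 30 kb after the first OAS2 window (dotted line), in the direction of the gene, with 1 panel per animal and 1 line per age; grey marks the windows labelled OAS2. At 0 kb the 16-month culture lies above the 5-month culture in each animal, at 1.98, 1.83 and 2.08 against 0.874, 1.46 and 0.823 CPM.

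No age difference was called in the other 8 genes. Of their windows, 11 were tested with 0 called in edgeR's quasi-likelihood test and 0 at an unadjusted p under 0.05, and edgeR's likelihood-ratio test and DESeq2 also called 0. With 0.185% of all windows called and 7.1% at an unadjusted p under 0.05, no call among 11 windows sets these genes apart from the genome. The lowest p belonged to the IRF1 window that holds most of its signal (log2 0.86, SE 0.45, unadjusted p = 0.0584, adjusted p = 0.731 in edgeR's quasi-likelihood test). That window held 1.43, 0.895 and 2.38 CPM at 5 months and 0.811, 0.198 and 2.03 CPM at 16 months. Each animal was therefore higher at 5 months, while the ages overlapped because animal 3 was high at both.

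At the gene starts, 3 of the other 8 members held enough reads for a test by age, and 0 were called, against 0.0113% of the 8861 starts tested. The 3 p-values were all above 0.05. ISG15 was higher at 5 months in 3 of 3 animals, with a log2 difference of 0.53 (SE 0.48, adjusted p = 0.923 in edgeR's quasi-likelihood test). MX2 gave 0.15 (SE 0.21) and IRF7 gave 0.09 (SE 0.19).

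The starts of IFIH1, DDX58, STAT2, MX1 and IRF1 held 62 to 112 reads over all 6 libraries and stayed under the filter. Without the filter 25421 starts were tested, these included, and 0 of the members other than OAS2 were called in edgeR's quasi-likelihood test. Their lowest library held 4 to 6 reads at the start. Leaving out OAS2, whose direction the choice of the group fixed, the direction was the same in all 3 animals for 2 of 8 starts, those of ISG15 and IRF1, against 26.3% of the starts tested in the whole genome and 15.8% of all starts with a read. The members that passed the filter were those with a high start and do not stand for all 9.

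In the gene bodies, 0 of the 6 members other than OAS2 were called by age in edgeR's quasi-likelihood test and 0 had an unadjusted p under 0.05, and the adjusted p was 1.0 for each. Over all 15525 bodies tested, 0% were called and 46 had an unadjusted p under 0.05, so this fit gave few low p-values for any gene. IRF1 had the largest value of the 6, with a log2 difference of 0.70 (SE 0.46, higher at 5 months in 3 of 3 animals). Its body held 1.08, 0.729 and 1.75 CPM per window at 5 months and 0.656, 0.347 and 1.37 at 16 months, and the ages overlapped.

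IFIH1 gave -0.42 (SE 0.73) on 19, 94 and 39 body reads at 5 months and 90, 23 and 80 at 16 months. Animals 1 and 3 had more reads per depth at 16 months and animal 2 at 5 months. Without animal 2 the IFIH1 body was called with a log2 difference of -1.28 (SE 0.39, adjusted p = 0.0228 in edgeR's quasi-likelihood test), in a fit that called 1041 bodies over all genes. Without animal 1 or animal 3 its value was 0.07 or 0.08. The other bodies lay between -0.19 (SE 0.22) for MX1 and 0.18 (SE 0.48) for STAT2. Several of these small values changed sign when an animal was left out.

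**Figure D4:**
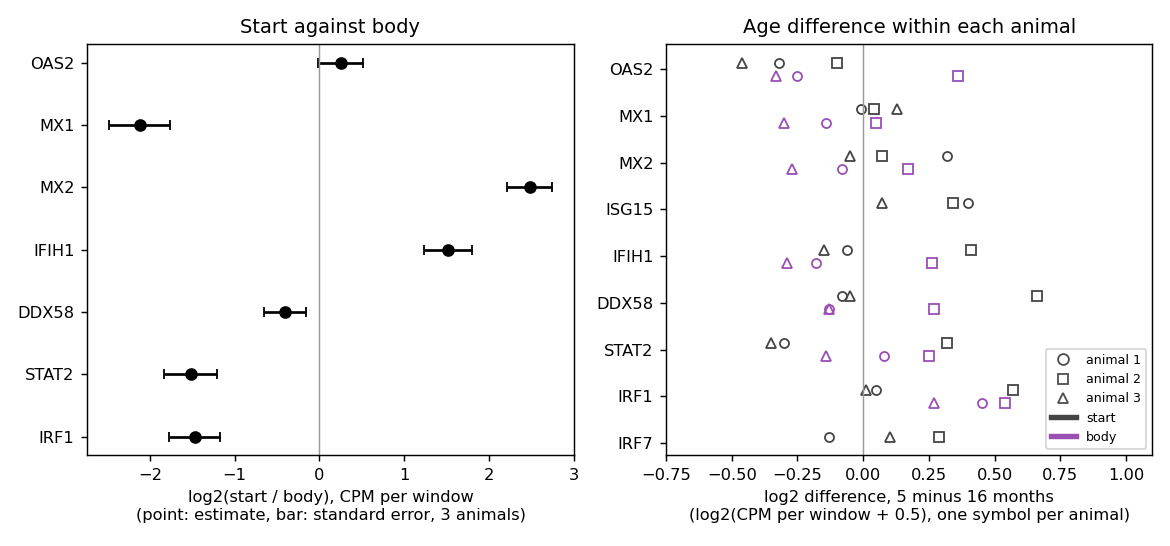
Left, fitted log2 ratio of start to body per 3 kb window for the 7 genes with a body. Bars give the standard error back-calculated from the test statistic of the fit on 3 animals, which is not the spread between animals. Right, log2 difference between the 5-month and the 16-month culture of each animal, on log2(CPM per window + 0.5), for starts and bodies. In animal 2 (squares) all 7 bodies lie on the 5-month side, a count for which no share over all genes was taken. The OAS2 start lies on the 16-month side in all 3 animals.

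The level of these genes also differed between the animals. Averaged over both ages, animal 3 was the highest of the 3 animals in 8 of 9 starts and in 7 of 7 bodies. The same animal was the highest in 68.6% of all starts with a read, 46.6% of the starts tested by age and 68.9% of the bodies tested by age, so its rank was shared with much of the genome. At the MX1 start animal 3 held 0.557 CPM per window, against 0.141 in animal 1 and 0.108 in animal 2. At the IRF1 body it held 1.56 CPM per window, against 0.868 and 0.538.

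IRF7 was the exception, with animal 3 the lowest at 3.68 CPM per window and animals 1 and 2 at 5.06 and 6.24. The library from animal 2 at 16 months was the lowest of the 6 in 6 of 9 starts and in 5 of 7 bodies, against 31.7% and 31.9% of all starts and bodies tested. In that animal all 7 bodies, OAS2 included, were higher at 5 months, by 0.05 for MX1 to 0.54 for IRF1 on the log2 scale. The share of all bodies higher at 5 months in animal 2 was not counted. The median log2 difference over all bodies tested was -0.03 with all animals and -0.17 without animal 2. Without animal 1 it was 0.12, and without animal 3 it was 0.05. The median over all bodies thus moved with each animal left out, and not with animal 2 alone. This library was the second smallest of the series, with 21520139 counted reads, and the part of depth in its low values was not tested.

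The rest of the interferon pathway was read in the same way from a list of 68 further genes, of which 62 were labelled. By age, 22 of their starts and 49 of their bodies were tested and 0 were called in edgeR's quasi-likelihood test, which compares with 0.0113% and 0% over all genes. At an unadjusted p under 0.05 there was 1 start of 22 and 0 bodies, where 7.0% of all starts and 0.296% of all bodies had such a p. The start was that of ADAR, an enzyme that edits double-stranded RNA, at 0.747 ± 0.451 CPM per window at 5 months and 1.22 ± 0.212 at 16 months (log2 -0.83, SE 0.35, adjusted p = 0.65 in edgeR's quasi-likelihood test, lower at 5 months in 3 of 3 animals). The median log2 difference was 0.05 for the starts and 0.03 for the bodies of the list, near the 0.04 and -0.03 of all genes.

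Between start and body, 55 pathway genes were tested, of which 10 were higher at the start (18.2%) and 32 higher in the body (58.2%), beside 19.3% and 48.5% over all genes. The median log2 difference was -0.90 for the list and -0.67 for all genes. Upstream of the response, 4 of 4 receptor chains and their kinases were higher in the body, at log2 -3.60 for TYK2, -2.43 for JAK1, -1.91 for IFNAR1 and -0.69 for IFNAR2. IRF9, which binds DNA in a complex with STAT2, was higher at the start (log2 0.86, SE 0.20). Of 4 further interferon regulatory factors, IRF8 (-3.79), IRF3 (-2.83) and IRF2 (-1.61) were higher in the body, and IRF5 gave -0.17 and did not pass.

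Among 8 sensors and adaptors, DHX58, which encodes LGP2 and is a relative of IFIH1 and DDX58, was higher at the start (log2 1.09, SE 0.18), as was the kinase TBK1 (1.40, SE 0.28). IKBKE, TMEM173 (STING), TICAM1 and MAVS were higher in the body, from -1.94 for TMEM173 to -0.73 for MAVS. The conjugation enzymes of ISG15 were higher in the body for UBA7 (-2.36), UBE2L6 (-2.12) and HERC5 (-1.69), and USP18, which removes ISG15 from its targets, was higher at the start (2.08, SE 0.27). Of the other members of the OAS family, OAS1 (-1.77) and OASL (-1.14) were higher in the body.

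The guanylate-binding GTPases GBP4 (1.23) and GBP5 (1.29) were higher at the start, as was MX2 among the members, whereas MX1 was higher in the body. The bodies of GBP4 and GBP5 held little signal, at 0.161 and 0.0931 CPM per window. Of 27 other effectors, EIF2AK2 (1.54), which encodes the RNA-activated kinase PKR, RSAD2 (0.95) and TNFSF10 (0.91) were higher at the start. The 15 higher in the body ran from -3.37 for ZNFX1 to -0.77 for DTX3L, and included TRIM25 (-2.99), IFI27 (-3.14), IFI6 (-2.70), SAMHD1 (-2.62), IFIT3 (-3.08), IFIT2 (-1.16) and IFIT5 (-1.12). The others were IFI44, ZBP1, CMPK2, ISG20, ADAR and XAF1. Both directions were therefore present within most roles of the pathway, and the receptor group was the one with all of its genes higher in the body.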

How the data were processed

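MIRA-Seq libraries of 6 fibroblast cultures (3 Holstein heifers, each sampled at 5 months and at 16 months) were analysed. Quality-filtered reads were aligned by the authors in NextGENe 2.3.4 to UMD v3.1, per the labels and methods, and the deposited values are unnormalised read counts of sequential 3 kb windows, each with at most 1 gene label. The deposited signal column with the highest depth of coverage per window was used only beside the counts. How PCR copies were handled is not stated in the paper or the labels.

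Windows, gene starts and gene bodies with at least 1 CPM in at least 3 libraries were tested by age with edgeR 4.0.16 (R 4.3.3, limma 3.58.1), using the quasi-likelihood test with animal as a block, TMM factors over the windows tested and Benjamini-Hochberg adjustment over all features. The study's likelihood-ratio test was an alternative, as was DESeq2 1.42.0. Start and body were compared with both ages of an animal summed, no TMM, an offset for depth and number of windows, at least 10 reads per animal and an FDR of 0.05. The scripts were tested on simulated data. Libraries pair by animal, per the labels, and deviations from the age means of the same animal correlated at 0.29, 0.544 and 0.71 across windows. The p-values rest on 1 culture per animal and age. Each SE was back-calculated from the fitted log2 difference and its test statistic, and is not the spread between animals.

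Members and pathway lists were chosen with earlier results of these data known. Named were all members in every library, their highest windows, OAS2 windows within 10 of the start, and pathway genes that were called or had the lowest p. Alternatives left out the 1% of windows with the most reads or upstream windows labelled with another gene, and these were added after seeing the data. The number of CpGs per window, which also sets the reads captured, was not analysed here. Some pathway genes in the counts are not reported here by name.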

Additional observations from a re-analysis of the deposited data

How the results depend on the processing

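Outside OAS2, member windows and starts called by age stayed at 0 under each of 11 and 12 alternatives. Between start and body, 5 or 6 members differed under 12 alternatives. The added member was DDX58 (-1.74), with the first labelled window alone as the start. Member bodies other than that of OAS2 called by age ranged from 0 to 1 when an animal was left out, the 1 being IFIH1 without animal 2. Without the replicate block, which removes the pairing by animal, 0 member windows, starts and bodies outside OAS2 were called by age. No such member feature was called with the block either, so a loss of calls could not be seen. Between start and body, 5 members still differed. Of 150 age values of single genes, 10 changed sign. The DDX58 body turned without the block (-0.01) and the MX2 body with all labelled windows (0.03). The others turned when an animal was left out, over a range of -0.27 (without animal 2) to 0.20 for the DDX58 body, -1.28 to 0.08 (without animal 3, and 0.07 without animal 1) for the IFIH1 body, -0.41 to 0.12 (without animal 3) for the MX2 body, -0.42 to 0.08 (without animal 3, and 0.07 without animal 1) for the OAS2 body, -0.04 (without animal 2) to 0.39 for the STAT2 body and -0.02 (without animal 2) to 0.22 for the IRF7 start. The OAS2 start moved to -0.92 with its first window alone. Counts over all features were less stable. Windows called were 194 with the main settings, 0 without the block, 14 with DESeq2, 25 with TMM factors from all windows, 59 without a filter, and 15, 77 and 1255 without animals 1, 2 and 3. Starts called were 1, against 17 with the likelihood-ratio test, 19 scaled to library size only, 3 with TMM factors from all windows, 22 at a filter of 0.5 CPM, 17 without a filter, 0 without the block, and 0 to 143 without an animal. Bodies called were 0, against 2 with the likelihood-ratio test, 2 with TMM factors from all windows and 1041 without animal 2. Why these counts moved was not tested.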
